A study of Mus musculus with 12 samples.

Results

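The genes described here are 10 endothelial and endocardial genes, Pecam1, Cdh5, Kdr, Flt1, Tek, Tie1, Emcn, Nfatc1, Eng and Klf2, chosen by name from the 26190 genes of the deposited expression table, and all 10 were found. RNA was sequenced from hearts of C57BL/6 mouse embryos at E11.5 (E11.5H), cut into atria and ventricles, and from heart organoids (HOs) at day 13, cut into parts resembling an atrium (atrium-like) or a ventricle (ventricle-like), with 3 libraries in each of the 4 groups. HOs were raised from embryonic stem cells of the mouse on a gel of laminin and entactin with FGF4, followed by BIO (a Wnt activator), BMP4 and LIF. The labels give the strain of the HOs as C57BL/6, while the methods of the study name 3 stem cell lines from C57BL/6 and from a hybrid of C57BL/6 with JF1 and do not say which line gave which library. Each sample was a piece cut by hand from a heart or an organoid, the labels do not say whether pieces were pooled or came from separate animals or cultures, and p-values therefore measure only the spread between these libraries.

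The endothelium lines blood vessels, and the endocardium is the endothelial layer that lines the chambers of the heart. The 2 layers share most of their markers, among them the junction proteins, the receptors for vascular endothelial growth factor (VEGF) and the receptors for angiopoietins, whereas Nfatc1 is best known in the heart from the endocardium of the forming valves. In the embryonic heart, signals from the endocardium drive trabeculation of the ventricles and formation of the valve cushions. In bulk samples such as these, fewer cells of a type and less RNA per cell cannot be told apart.

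All 10 genes were detected in each of the 6 embryonic libraries, in which the mean of their log2 CPM (fragment counts scaled to a common library size) was 6.09 to 6.39. In HOs this mean was 1.41, 5.25 and 1.96 in the atrium-like parts of replicates 1, 2 and 3, and 2.28, 4.66 and 1.23 in the ventricle-like parts. By this mean, replicate 2 of both parts was thus nearest to the embryonic hearts, and the other 4 HO libraries were far below. In FPKM (fragments per kilobase of transcript, scaled to the library total), 51 of the 60 values of the genes in HO libraries lay below all 6 embryonic libraries and 5 lay above all of them, 4 of these in Flt1 and 1 in Klf2. Total fragments were 23971258 to 30540993 per library, so that 3 fragments corresponded to 0.0982 to 0.125 CPM.

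**Figure D1:**
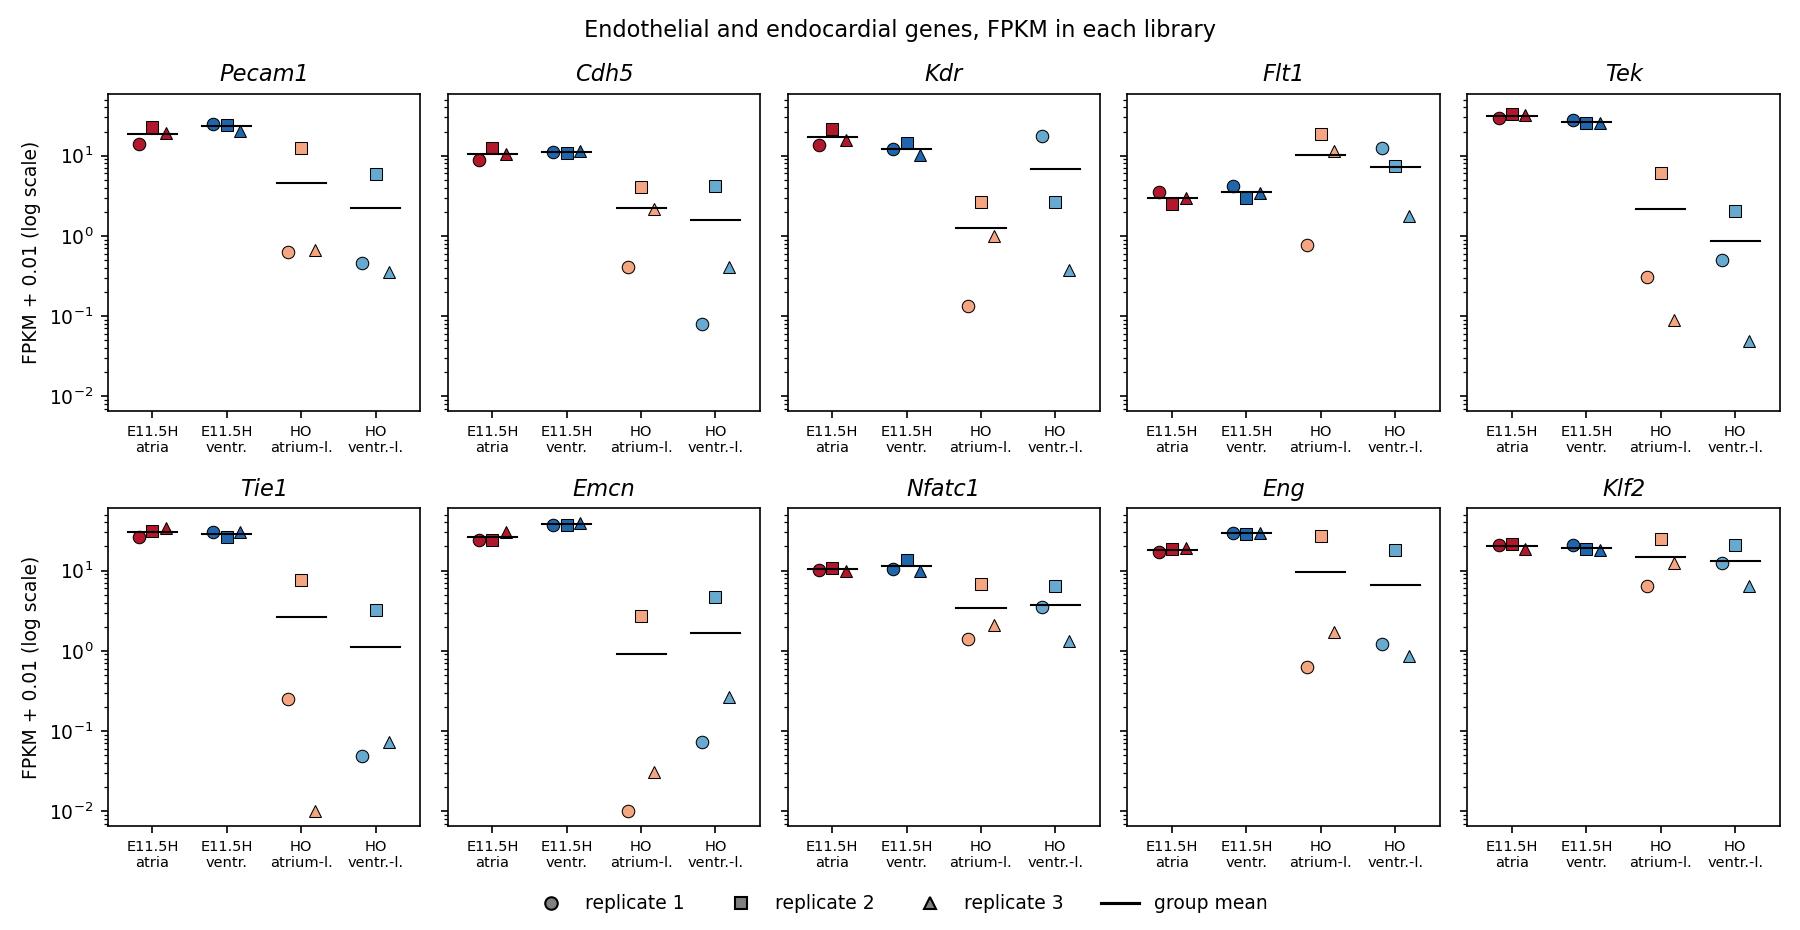
FPKM plus 0.01 (log scale) of each of the 10 genes in the 12 libraries; symbols give the replicate number, colours the group and black lines the mean of 3 libraries. In 8 of the 10 genes the squares of replicate 2 are the 2 highest of the 6 HO libraries, and Flt1 is the gene in which 4 HO libraries lie above the embryonic ones.

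The sequences before the starts of 4 of the genes are shown because the results below turn on these genes, Tek and its relative Tie1 for their low levels in most HO libraries, Eng for its difference between the embryonic chambers and Flt1 for going against the other genes. The 250 bases before the RefSeq start (GRCm38.p6) were taken for the 7 genes that have an entry in the table used, namely Kdr, Flt1, Tek, Tie1, Emcn, Eng and Klf2. They were searched on both strands for AGGAAGT, letters of the ETS family of transcription factors with known roles in endothelium, and for a further form of the ETS letters, CCGGAAG. The letters AGATAA stand for factors related to Gata4, GGGTGTGG for the KLF family and GTAAACA for the forkhead family. Both ETS forms share GGAAG and could overlap each other, which they did not in these stretches. The stretches lie at chr4:94739039-94739288 on the plus strand for Tek, chr4:118489850-118490099 on the minus strand for Tie1, chr2:32646345-32646594 on the plus strand for Eng and chr5:147726012-147726261 on the minus strand for Flt1. Each is written 5′ to 3′ on the strand of its gene, and capitals mark a match.
Tek: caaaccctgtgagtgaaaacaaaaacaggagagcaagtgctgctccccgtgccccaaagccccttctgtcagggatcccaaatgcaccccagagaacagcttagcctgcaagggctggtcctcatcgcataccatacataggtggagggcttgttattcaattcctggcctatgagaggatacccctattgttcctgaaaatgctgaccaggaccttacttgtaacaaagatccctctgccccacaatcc
Tie1: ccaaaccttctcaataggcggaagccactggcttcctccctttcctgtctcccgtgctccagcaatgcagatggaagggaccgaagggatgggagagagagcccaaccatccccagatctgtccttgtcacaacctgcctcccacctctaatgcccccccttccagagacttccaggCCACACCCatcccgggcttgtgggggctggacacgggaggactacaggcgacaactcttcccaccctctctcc
Eng: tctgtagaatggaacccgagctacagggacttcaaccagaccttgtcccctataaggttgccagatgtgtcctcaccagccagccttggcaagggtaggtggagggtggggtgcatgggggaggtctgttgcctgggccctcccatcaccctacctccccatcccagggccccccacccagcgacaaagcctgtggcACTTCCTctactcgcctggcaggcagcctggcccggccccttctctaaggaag
Flt1: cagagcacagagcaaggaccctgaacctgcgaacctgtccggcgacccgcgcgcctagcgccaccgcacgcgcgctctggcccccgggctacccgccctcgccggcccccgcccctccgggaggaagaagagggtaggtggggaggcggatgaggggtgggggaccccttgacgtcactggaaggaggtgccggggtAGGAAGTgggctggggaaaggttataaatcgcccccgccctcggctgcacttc
AGGAAGT was found in Flt1 and, as its reverse complement ACTTCCT, in Eng, in each case with its first base 53 bases before the start. These letters were present in 7.69% of all 32851 promoter stretches of the same length. The letters of the KLF family were found in Tie1 on the opposite strand (CCACACCC, 73 bases before the start), and 3.20% of all stretches held them. The second ETS form, the letters related to Gata4 and those of the forkhead family were in none of the 7 stretches, against 6.91%, 9.99% and 3.17% of all stretches. These are matches of letters only and are not evidence of binding.

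In the embryonic hearts, Tek and Tie1 were the most abundant of the 10 genes in atria, with means of 31.5 and 30.4 FPKM, and Emcn was the most abundant in ventricles, with 37.7 FPKM. Flt1 was the least abundant in all 6 libraries, with 3.0 ± 0.494 FPKM (SD, n = 3) in atria and 3.51 ± 0.591 FPKM in ventricles. In atria the libraries of Emcn and Klf2, of Kdr and Cdh5 and of Nfatc1 and Flt1 did not overlap, whereas the other neighbours in the order of levels did. In ventricles the neighbours that did not overlap were Emcn and Eng, Tek and Pecam1, Klf2 and Kdr, and Cdh5 and Flt1. In HOs, no neighbours in this order were apart in either part, and Klf2 and Flt1 had the highest mean FPKM.

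The first question was whether the chambers of E11.5H differed in these genes. Eng and Emcn were lower in atria than in ventricles, by less than the fold limit used for calls, and no other gene of the 10 passed an adjusted p of 0.05. A gene was called at an adjusted p under 0.05 (edgeR's quasi-likelihood test, Benjamini-Hochberg adjustment over all genes tested) with an absolute log2 fold change over 1. By this rule 0 of the 10 genes were called between atria and ventricles, where 4.9% of 14536 genes were called. Without the fold limit 2 of the 10 passed, against 13.6% of all genes. The median log2 fold change of the 10 genes was -0.18, with 6 of them lower and 4 higher in atria, and that of all genes was 0.01. At an unadjusted p under 0.05, 5 of the 10 genes passed, and these were Eng, Emcn, Tek, Kdr and Pecam1. Of all 14536 genes, 3908 reached this level. DESeq2 called 0 of the 10 as well.

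Eng (chr2:32646595-32682669, plus strand) encodes endoglin, a co-receptor for ligands of the TGF-β and BMP families. It had 16.9, 18.4 and 19.3 FPKM in the 3 libraries of atria and 29.0, 29.0 and 29.2 FPKM in those of ventricles. The chambers did not overlap, as was the case in 17.3% of all genes in this direction, and the coefficient of variation was 6.85% over the atria and 0.370% over the ventricles. Atria had -0.75 relative to ventricles on the log2 scale, with a standard error of 0.08 and an adjusted p of 1.64e-04 in edgeR's test. Eng overlaps Fpgs on the opposite strand, the deposited entry for Eng lists a transcript that RefSeq gives to Fpgs, and the use of strand in counting is not given in the sources used here, so that reads of these neighbours cannot be told apart where they overlap. Fpgs had 8.83 to 10.1 FPKM in atria and 7.90 to 9.56 FPKM in ventricles, which overlapped.

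Emcn (chr3:137341078-137431069, plus strand) encodes endomucin, a surface sialomucin of endocardium and of venous and capillary endothelium. It had 24.3, 24.3 and 30.3 FPKM in atria and 36.7, 37.1 and 39.4 FPKM in ventricles. All atria were below all ventricles, at -0.59 on the log2 scale with a standard error of 0.11 and an adjusted p of 0.00668 in edgeR's test. Over the 6 fits that each lacked 1 library, this p ran from 6.87e-04 to 0.00153 for Eng and from 0.00419 to 0.0295 for Emcn. When the HO libraries were put in the same fit, the log2 fold changes of Eng and Emcn were -0.77 and -0.62 but the adjusted p rose to 0.999 for both genes, because the spread was then estimated over HOs as well.

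Tek (chr4:94739289-94874976, plus strand) encodes the receptor TIE2 for angiopoietins. Its level was 29.4, 33 and 32 FPKM in atria and 27.7, 25.5 and 25.8 FPKM in ventricles. The atria were above the ventricles without overlap (15.2% of all genes did the same), and the fitted difference was 0.19 on the log2 scale with a standard error of 0.07 and an adjusted p of 0.107 in edgeR's test. Kdr (chr5:75932827-75978455, minus strand), the main signalling receptor of VEGF-A in endothelium, had 13.7, 21.7 and 15.6 FPKM in atria and 12.1, 14.3 and 10.2 FPKM in ventricles. These groups overlapped, and the log2 fold change was 0.41 with a standard error of 0.16 and an adjusted p of 0.116 by edgeR. Without atrial replicate 2 the log2 fold change of Kdr was 0.21.

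Pecam1 (chr11:106654213-106715281, minus strand), an adhesion molecule of endothelial junctions that platelets and leukocytes carry too, had 14.0, 23.0 and 19.0 FPKM in atria and 25.2, 24.1 and 20.4 FPKM in ventricles. Its log2 fold change was -0.39 with a standard error of 0.15 and an adjusted p of 0.119 by edgeR, the groups overlapped, and without atrial replicate 1 the value was -0.23. Of the remaining genes, Cdh5 (chr8:104101625-104144502, plus strand), the VE-cadherin of endothelial junctions, had a log2 fold change of -0.16 with a 95% interval from -0.39 to 0.07. Tie1 (chr4:118471191-118489849, minus strand), a receptor of the same family as Tek, had a value of 0.01 with an interval from -0.20 to 0.22. Klf2 (chr8:72319062-72321654, plus strand), a transcription factor induced by blood flow in endothelium, had a value of 0.02 with an interval from -0.18 to 0.21. Nfatc1, on chromosome 18, had a value of -0.19 (interval -0.42 to 0.03), and Flt1 (chr5:147561604-147726011, minus strand), a VEGF receptor of high affinity and weak signalling, had a value of -0.29 (interval -0.60 to 0.01). The intervals of these 5 genes all included 0, and differences within them were not detectable with 3 libraries a group. Cdh5 and Nfatc1 each overlap an antisense transcript.

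Marker genes of other cell types also differed between the embryonic chambers. The summed CPM of 10 macrophage genes was 68.8 to 126 in atria and 29.5 to 40.1 in ventricles, with 6 of the 10 called higher in atria and none at 0 in any of these libraries. The summed CPM of 8 megakaryocyte and platelet genes was 115 to 140 in atria and 57.3 to 109.5 in ventricles, with 0 of 8 called by edgeR, 6 at an unadjusted p under 0.05 and none at 0, and that of 12 erythroid genes was 5166 to 9665 and 8269 to 54817, with 4 of 11 tested called lower in atria and at most 1 at 0 in a library. Their part in the chamber values of the 10 genes was not tested. The mean log2 CPM of 20 other pan-endothelial genes was 4.91 to 5.0 in atria and 5.19 to 5.26 in ventricles. Set against this mean in each library, Emcn overlapped between the chambers, at 0.291 to 0.715 in atria and 0.706 to 0.884 in ventricles. Eng did not, at 1.11 to 1.36 and 1.66 to 1.74. This scale was chosen with the values known, and no test was run on it.

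Some other genes of the same pathways were called between the chambers. Of 20 other pan-endothelial genes, Cldn5, a tight junction protein, was higher in atria (log2 fold change 1.5, edgeR adjusted p = 0.00449), while Cd34, a surface sialomucin (-1.77, adjusted p = 2.49e-06), and Ptprb, the endothelial phosphatase that acts on TIE2 and VE-cadherin (-1.04, adjusted p = 0.00708), were lower. Of 12 other endocardial genes 0 were called by edgeR with this fold limit, although 9 had an unadjusted p under 0.05. Of 13 arterial genes, Hey1 (1.73) and Jag1 (1.01), both of the Notch pathway, were higher in atria, and of 8 venous and lymphatic genes, Emcn among them, Nr2f2 (2.81), a transcription factor of veins and of atrial muscle, and Aplnr (3.32), the apelin receptor, were higher. Of 8 VEGF ligands and co-receptors, Vegfa was lower in atria (-1.02). Of 5 genes tested of the angiopoietin list, Svep1, a matrix protein, was higher (1.64) and Ptprb was lower. The calls of Jag1, Ptprb and Vegfa rest on values near the fold limit. Jag1 was at 0.84 to 0.99 and no longer called without atrial replicate 1 or 3 or ventricular replicate 2 or 3, Ptprb at -0.97 to -0.88 without atrial replicate 1 or 3 or ventricular replicate 2, and Vegfa at -0.95 to -0.86 without atrial replicate 3 or ventricular replicate 2 or 3.

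Further along the pathways of the single genes, 1 of 16 genes of the endoglin pathway was called, and this was Bmp10, a ligand of endoglin made by the myocardium (-1.5). Of 8 genes of calcineurin and NFAT, Nfatc2 (-1.80) and Rcan1 (-1.11), a target of NFAT that restrains calcineurin, were lower in atria. Of 15 genes of the flow response and the Klf2 pathway, Thbd, thrombomodulin, was higher (2.87) and Wnt9b was lower (-1.19), the latter with an adjusted p of 0.0575 in edgeR's test without ventricular replicate 1. Of 9 partners of VE-cadherin only Cldn5 and Ptprb, already named, were called. The median log2 fold change was -0.23 over the pan-endothelial list, -0.22 over the endocardial list and 0.44 over the venous list, beside 0.01 over all genes. With the HO libraries in the same fit, 12 of the 14 genes named here lost their calls, all but Nr2f2 and Rcan1. By limma on log2(FPKM + 1), 6 of the 14 lost theirs, among them Nfatc2 at -0.80 and Svep1 at 0.85, and 2 did so by limma on log2(FPKM + 0.1) and 2 with scaling by totals alone.

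**Figure D2:**
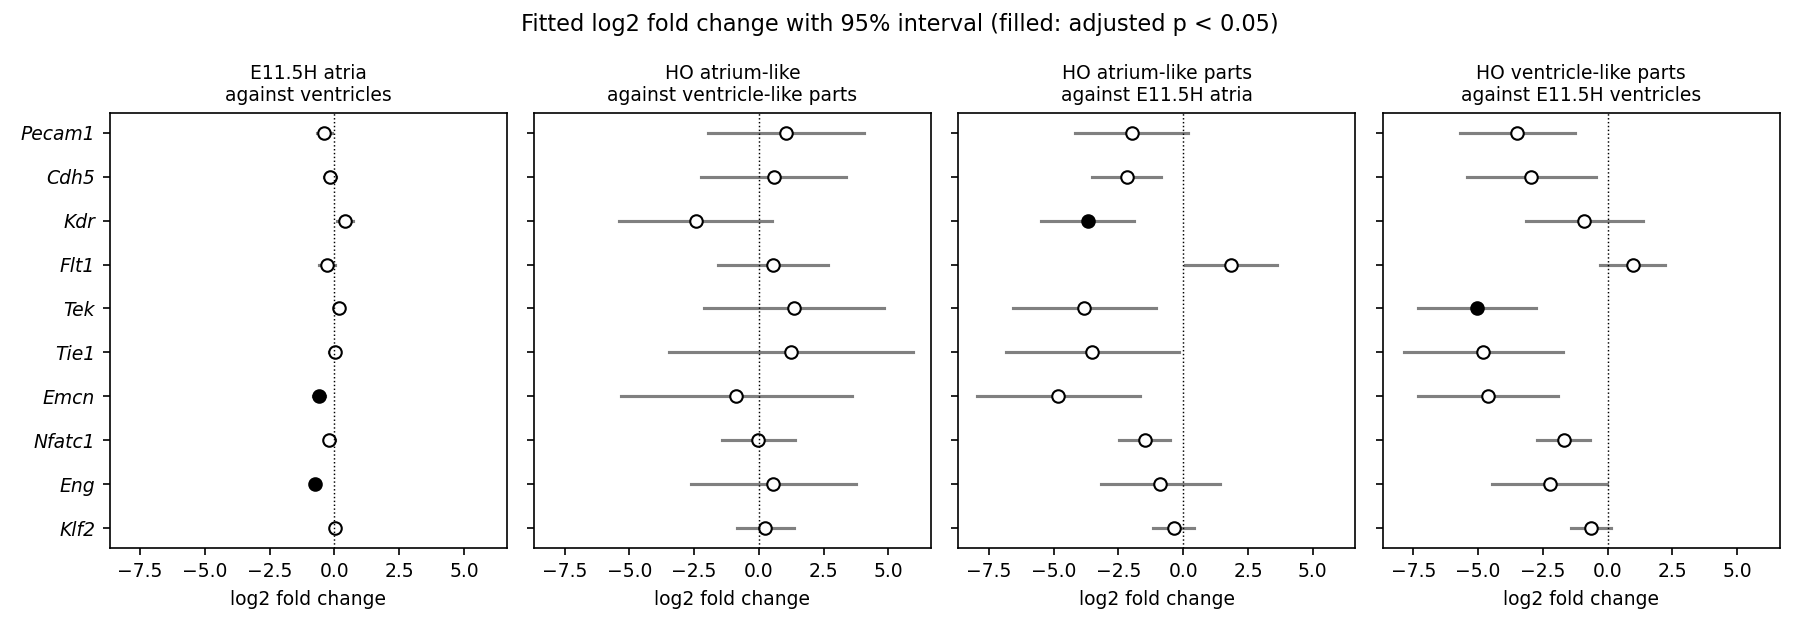
Fitted log2 fold changes of the 10 genes in 4 comparisons, with lines for the 95% interval by the normal distribution and filled points for an adjusted p under 0.05. Eng and Emcn are filled between the embryonic chambers, Kdr between atrium-like parts and atria, and Tek between ventricle-like parts and ventricles, and the intervals between the 2 HO parts all cross 0.

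The next question was whether the atrium-like part of HOs differed from the ventricle-like part. None of the 10 genes was called (background 0 of 15703 genes, or 0%), and in this fit, which has no replicate block, none had an unadjusted p under 0.05, a level that 889 of all genes reached. DESeq2 called 0 of the 10 and 59 of all genes (0.376%). It gave no p for Pecam1, Tie1, Emcn and Eng, which therefore could not be called by it. The groups overlapped in every one of the 10 genes, while 12% of all genes did not overlap. The log2 fold changes ran from -2.43 in Kdr (95% interval -5.39 to 0.52) to 1.36 in Tek (-2.12 to 4.83), and the narrowest interval, that of Klf2, was -0.84 to 1.35. The spread within each part was so wide that these data do not show that the parts were alike. Counts were simulated with the spread fitted to each gene, and 200 genes drawn from all those tested were given a log2 change of 2. Of these, edgeR recovered 0% between the HO parts and 81% between the embryonic chambers. For the HO parts DESeq2 found 47.5% of them, and 81 of its 176 calls were false. The median standard deviation of log2 CPM within the HO parts was 2.31 and 2.48 for the 10 genes, against 0.56 and 0.46 for all genes. The recovered shares therefore do not give the power for the 10 genes. Without replicate 2 of both parts, Tie1 and Emcn no longer passed the filter on low counts, 0 of the 8 genes left were called, and the values of Tek and Flt1 changed sign, to -0.24 and -0.11.

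Testing whether the chamber difference itself differed between HOs and E11.5H gave no call among the 10 genes by edgeR (background 0.152% of 16494 genes), none at an unadjusted p under 0.05 and none by DESeq2. The interaction was furthest from 0 in Kdr, at -2.81 on the log2 scale with a 95% interval from -5.90 to 0.29 (edgeR adjusted p = 0.516). It was 1.5 in Pecam1 (interval -1.71 to 4.72) and 1.37 in Eng (-2.08 to 4.82), which had the next largest values.

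The spread between HO libraries was the main feature of these genes. The median standard deviation of log2 CPM over the 6 HO libraries was 2.23 for the 10 genes, 1.78 for the 20 other pan-endothelial genes and 0.59 for all 16494 genes kept. Over the 6 embryonic libraries it was 0.24 for the 10 genes and 0.26 for all genes. Within the HO parts the medians were 2.31 in atrium-like and 2.48 in ventricle-like parts, and within the embryonic chambers 0.18 and 0.11. By the standard deviation over HOs, Tie1 stood at percentile 98.8 of all genes, Emcn at 96.5 and Tek at 94.8, while Nfatc1 stood at 66.0 and Klf2 at 58.1.

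Tek had 0.297, 6.16 and 0.0784 FPKM in the 3 atrium-like parts and 0.494, 2.04 and 0.0394 FPKM in the 3 ventricle-like parts, so that its highest HO library had 157 times the level of its lowest. That lowest library, ventricle-like replicate 3, held 6 fragments of Tek, so that the ratio is imprecise. Tie1 had 0.243, 7.61 and 0 FPKM in atrium-like parts and 0.0394, 3.24 and 0.0636 FPKM in ventricle-like parts. Its 0 in atrium-like replicate 3 stands for 0 fragments, which at this depth allows up to 0.112 CPM by counting error alone. In both receptors for angiopoietins, replicate 2 of the 2 parts stood apart from the other 4 libraries and was itself below every embryonic library.

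Emcn had 0, 2.69 and 0.0210 FPKM in atrium-like parts, from 0, 133 and 1 fragments, and 0.0627, 4.69 and 0.253 FPKM in ventricle-like parts, from 3, 224 and 12 fragments. The 0 in atrium-like replicate 1 allows up to 0.125 CPM. Emcn was the lowest of the 10 genes in mean FPKM in atrium-like parts, although it was the highest in embryonic ventricles.

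Pecam1 had 0.619, 12.4 and 0.654 FPKM in atrium-like parts and 0.449, 5.94 and 0.342 FPKM in ventricle-like parts. Eng had 0.622, 26.8 and 1.68 FPKM in atrium-like parts and 1.21, 18 and 0.860 FPKM in ventricle-like parts. In both genes replicate 2 was far above replicates 1 and 3, by 36.2 times between the highest and the lowest library in Pecam1 and by 43.1 times in Eng. Replicate 2 of the atrium-like parts exceeded the 3 embryonic atria in Eng, whereas the other 2 atrium-like libraries had 3.41% and 9.24% of the mean of atria.

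Cdh5 had 0.394, 4.01 and 2.16 FPKM in atrium-like parts and 0.0690, 4.24 and 0.402 FPKM in ventricle-like parts. Replicate 2 was again highest in both parts, but atrium-like replicate 3, at 20.5% of the mean of atria, was nearer to it in Cdh5 than in Tek, Tie1 or Emcn. Kdr had 0.123, 2.64 and 0.985 FPKM in atrium-like parts and 17.5, 2.67 and 0.370 FPKM in ventricle-like parts. Its highest value was thus in ventricle-like replicate 1, from 4405 fragments, where it was 144% of the mean of embryonic ventricles while Cdh5 was 0.616% and Tie1 0.137% of theirs.

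Flt1 had 0.759, 18.6 and 11.3 FPKM in atrium-like parts and 12.6, 7.43 and 1.76 FPKM in ventricle-like parts. Atrium-like replicates 2 and 3 and ventricle-like replicates 1 and 2 were above all embryonic libraries, and atrium-like replicate 1 and ventricle-like replicate 3 were below them. Flt1, which is also known from trophoblast, was ranked 10th of the 10 genes in every embryonic library and 2nd or 3rd in every HO library.

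Nfatc1 and Klf2 varied least between HO libraries. Nfatc1 had 1.40, 6.83 and 2.10 FPKM in atrium-like parts and 3.48, 6.33 and 1.32 FPKM in ventricle-like parts, a range of 5.19 times that stayed below all embryonic libraries. Klf2, which embryonic stem cells and leukocytes express too, had 6.33, 25.1 and 12.3 FPKM in atrium-like parts and 12.3, 20.7 and 6.37 FPKM in ventricle-like parts. Against 18.1 to 21.7 FPKM in the embryonic hearts, atrium-like replicate 2 was above, ventricle-like replicate 2 within and the other 4 libraries below this range.

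Over the 10 genes, replicate 2 of the 2 parts held both of the highest HO values in 8 genes, the exceptions being Kdr and Flt1. Atrium-like replicate 1 was lowest in 5 genes and ventricle-like replicate 3 in 3 genes. The median level of the 10 genes as a share of the mean of the matching embryonic chamber was 3.36%, 52.1% and 7.51% in atrium-like replicates 1, 2 and 3 and 3.05%, 31.7% and 3.0% in ventricle-like replicates 1, 2 and 3.

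**Figure D3:**
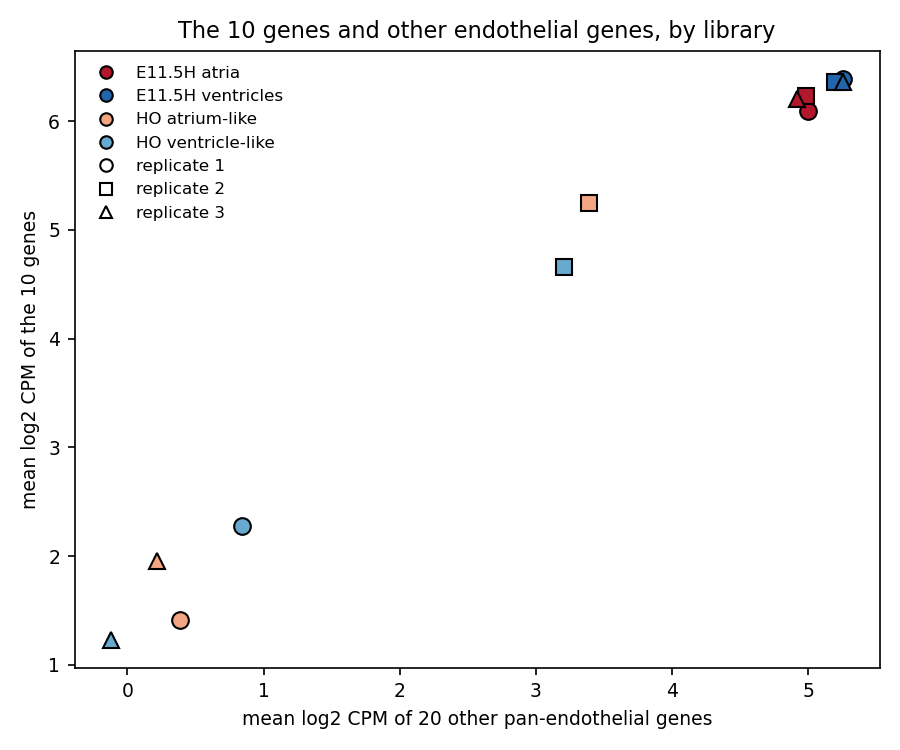
Mean log2 CPM of the 10 genes against that of 20 other pan-endothelial genes, with 1 point for each of the 12 libraries, colours for groups and symbols for replicate numbers. Replicate 2 of the 2 HO parts (5.25 and 4.66 on the vertical axis) lies between the 6 embryonic libraries and the other 4 HO libraries on both axes.

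The other pan-endothelial genes were also highest in replicate 2 of both parts, although their order among the other 4 libraries was not the same. Their mean log2 CPM in HOs was 0.39, 3.39 and 0.22 in atrium-like parts and 0.84, 3.21 and -0.12 in ventricle-like parts. The sum of 12 other endocardial genes was highest in replicate 2 as well, with 99.1, 448 and 164 CPM in atrium-like and 269, 395 and 130.5 CPM in ventricle-like parts. Of genes with a mean of at least 5 CPM, those most like the mean of the 10 genes over all 12 libraries by Pearson's r were Plvap (0.996), Clec14a (0.980), Icam2 (0.980), Plxnd1 (0.978) and Tspan18 (0.977). Over the 6 HO libraries alone they were Plvap (0.994), Ctla2a (0.992), P2ry6 (0.986), Igfbp4 (0.984) and Tgfbi (0.984). The embryonic and organoid libraries form separate clusters, which the first set of values reflects. Plvap had 92.7 to 110 FPKM in the embryonic libraries, and in HOs 0.104, 16.4 and 0.457 FPKM in atrium-like and 0.561, 7.38 and 0.107 FPKM in ventricle-like parts.

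Marker genes of other cell types also differed between the HO libraries. The summed CPM of 12 genes of hepatocytes and visceral endoderm was 33744, 1602 and 11798 in atrium-like replicates 1, 2 and 3 and 539, 50.4 and 10049 in ventricle-like replicates 1, 2 and 3, against 5.47 to 11.7 in E11.5H. None of the 12 was at 0 in atrium-like parts, and 0 to 2 were at 0 in ventricle-like parts. The sum of 10 epithelial genes was 9520, 2187 and 7827 CPM in atrium-like and 1872, 1096 and 5055 CPM in ventricle-like parts, with at most 1 at 0. Within each part, the library with the highest mean of the 10 genes, replicate 2, had the lowest sum of both lists. The sum of 10 macrophage genes was 421, 705 and 150 CPM in atrium-like and 427, 559 and 142 CPM in ventricle-like parts, with none at 0, and was highest in replicate 2. The sum of 8 megakaryocyte genes was 9.91 to 63.5 CPM in atrium-like parts and 232, 67.4 and 15.1 CPM in ventricle-like replicates 1, 2 and 3, with 0 to 2 at 0 in a library, and 12 erythroid genes summed to 2.27 to 22.4 CPM with 3 to 6 at 0. Skeletal muscle genes had a mean log2 CPM of 2.67 and 2.32 in replicate 2 of the atrium-like and ventricle-like parts, with 1 of 8 at 0 in each, and of -1.59 to -1.23 in the other 4 HO libraries, with 4 to 6 at 0. In E11.5H this mean was as high as 2.19, in atrial replicate 3, with none at 0. The summed CPM of these genes was 375, 442 and 1028 in atrium-like parts, highest in replicate 3. In ventricle-like parts it was 185, 370 and 291. The mean log2 CPM of 8 smooth muscle and pericyte genes was 4.26, 6.06 and 4.35 in atrium-like and 5.85, 6.32 and 4.98 in ventricle-like parts, with at most 1 at 0, and was highest in replicate 2 of both parts. That of 10 fibroblast genes was 7.34, 9.17 and 7.82 in atrium-like parts and 9.07, 8.53 and 6.58 in ventricle-like parts, with none at 0, and was highest in replicate 2 of the atrium-like parts alone. The sum of 16 cardiomyocyte genes was 986, 2560 and 3064 CPM in atrium-like and 5775, 3483 and 10447 CPM in ventricle-like parts, with none at 0. In E11.5H it was 32681 to 46293 CPM. This sum was highest in replicate 3 of both HO parts and lowest in replicate 2 of the ventricle-like parts. The part of these cell types in the values of the 10 genes was not tested.

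When each gene was set against the mean log2 CPM of the 20 other pan-endothelial genes of the same library, the genes went in opposite directions between HOs and E11.5H. Relative to this mean, Flt1 was at -0.08 to 0.47 in E11.5H and at 3.17 to 7.06 in HOs, Klf2 at 0.08 to 0.44 and 2.12 to 4.60, and Nfatc1 at 1.22 to 1.70 and 2.44 to 4.07, so that all 6 HO libraries were above all 6 embryonic libraries in these 3 genes. Emcn was at 0.29 to 0.88 in E11.5H and at -4.19 to -0.32 in HOs, Tek at 1.93 to 2.48 and -1.70 to 1.63, and Tie1 at 1.69 to 2.30 and -4.02 to 1.65, so that all HO libraries were below in these 3. Pecam1, Cdh5, Kdr and Eng overlapped between HOs and E11.5H on this scale. Kdr was at 6.42 in ventricle-like replicate 1, and at 0.10 to 3.03 in the other HO libraries. This scale was chosen after the values were seen and carries no test. The lowest values of Emcn (-4.19, atrium-like replicate 1) and Tie1 (-4.02, atrium-like replicate 3) came from 0 fragments and were set by the prior count of 2. Of the 20 reference genes, up to 4 were at 0 in an HO library, so that the reference mean was itself partly at the floor.

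**Figure D4:**
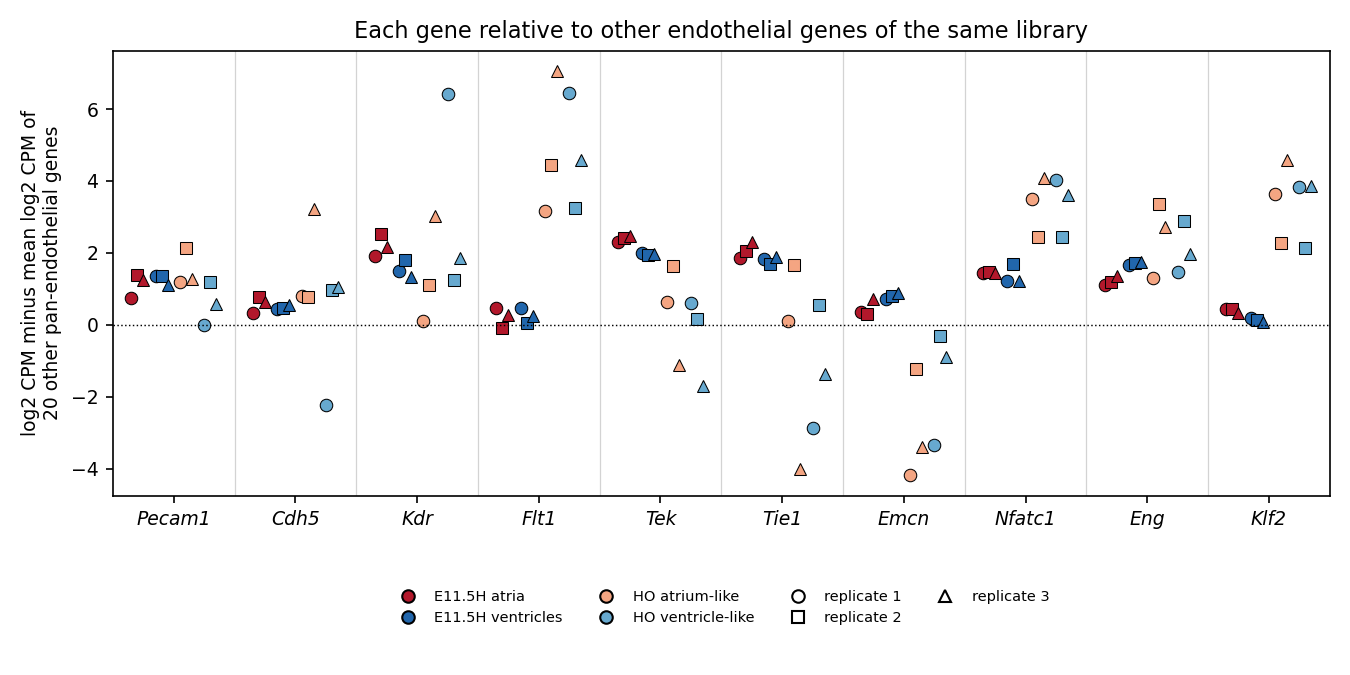
Difference in log2 CPM between each of the 10 genes and the mean of 20 other pan-endothelial genes of the same library, for the 12 libraries (colours for groups, symbols for replicate numbers, dotted line at no difference). The HO points of Flt1, Klf2 and Nfatc1 lie above the embryonic points and those of Emcn, Tek and Tie1 below.

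In the direct comparison of atrium-like parts with embryonic atria, Kdr was the gene that was called. Kdr stood at -3.69 on the log2 scale, with a standard error of 0.91 and an adjusted p of 0.0255 in edgeR's test. One of the 10 genes was thus called lower, where 8.81% of 15418 genes were called lower and 24.8% in either direction. Pecam1, Cdh5, Kdr, Tek, Tie1, Emcn and Nfatc1, which are 7 of the 10, lay below the atria in every library, as did 26.7% of all genes. At an unadjusted p under 0.05, 5 of the 10 passed, a level that 6838 of the 15418 genes reached. The median log2 fold change of the 10 genes was -2.09, beside 0.06 over all genes. Among the genes that were not called, Emcn had the lowest value at -4.82 (standard error 1.61, adjusted p = 0.0641), followed by Tek at -3.82 (1.40, adjusted p = 0.0823) and Tie1 at -3.51 (1.70, adjusted p = 0.160). Flt1 was at 1.84 with a standard error of 0.90 (adjusted p = 0.163).

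The call depended on which libraries entered. Without atrium-like replicate 2, 8 of the 10 genes (all but Flt1 and Klf2) were called lower, where 34.7% of all genes were called in either direction, with log2 fold changes of -7.13 in Tek, -4.62 in Pecam1 and -3.76 in Eng (with that library, -0.88). Tek then had 40 and 12 fragments in the remaining HO libraries. Emcn had at most 1 fragment in each of them, and no fold is given. Without atrium-like replicate 1, Cdh5 and Kdr were called lower and Flt1 was called higher, at 2.36 (background 23.3%). Without atrium-like replicate 3, or without any 1 of the 3 atria, 0 were called (background 10.3% to 18.3%), and the adjusted p of Kdr in edgeR's test was then 0.0725 to 0.0838.

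In the comparison of ventricle-like parts with embryonic ventricles, Tek was the gene that was called, at -5.05 on the log2 scale, with a standard error of 1.16 and an adjusted p of 0.0236 in edgeR's test. The background was 7.35% of 15094 genes called lower and 18.9% in either direction. Pecam1, Cdh5, Tek, Tie1, Emcn, Nfatc1 and Eng, again 7 of the 10, lay below the ventricles in every library, as did 24.6% of all genes. At an unadjusted p under 0.05, 5 of the 10 passed here too, a level that 6467 of the 15094 genes reached. The median log2 fold change was -2.60, beside 0.09 over all genes. Emcn was at the edge of the limit, with -4.62 (standard error 1.39, adjusted p = 0.0501), and Tie1 had -4.81 (1.57, adjusted p = 0.0631) and Pecam1 -3.49 (1.13, adjusted p = 0.0619). Flt1 had 0.96 (0.64, adjusted p = 0.294) and Kdr had -0.90 (1.16, adjusted p = 0.583).

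As in atrium-like parts, the number of calls depended on which libraries entered and was highest without HO replicate 2. Without ventricle-like replicate 2, 8 of the 10 genes (all but Kdr and Flt1) were called lower, against 21.3% of all genes called in either direction, with log2 fold changes of -9.16 in Tie1, -7.95 in Emcn, -6.69 in Tek and -1.10 in Klf2. Replicates 1 and 3 of the ventricle-like parts then held 5 and 8 fragments of Tie1, 3 and 12 of Emcn and 76 and 6 of Tek. The sizes of these 3 folds thus rest on counts near the floor. Without ventricle-like replicate 3, Tek, Tie1, Emcn and Nfatc1 were called lower and Flt1, at 1.40, was called higher (background 23.9%). Without ventricle-like replicate 1, or without any 1 of the ventricles, 0 were called (background 7% to 13.7%), and the adjusted p of Tek in edgeR's test was 0.0718 to 0.0830. The log2 fold change of Kdr was -3.16 without ventricle-like replicate 1, which held its highest value.

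**Figure D5:**
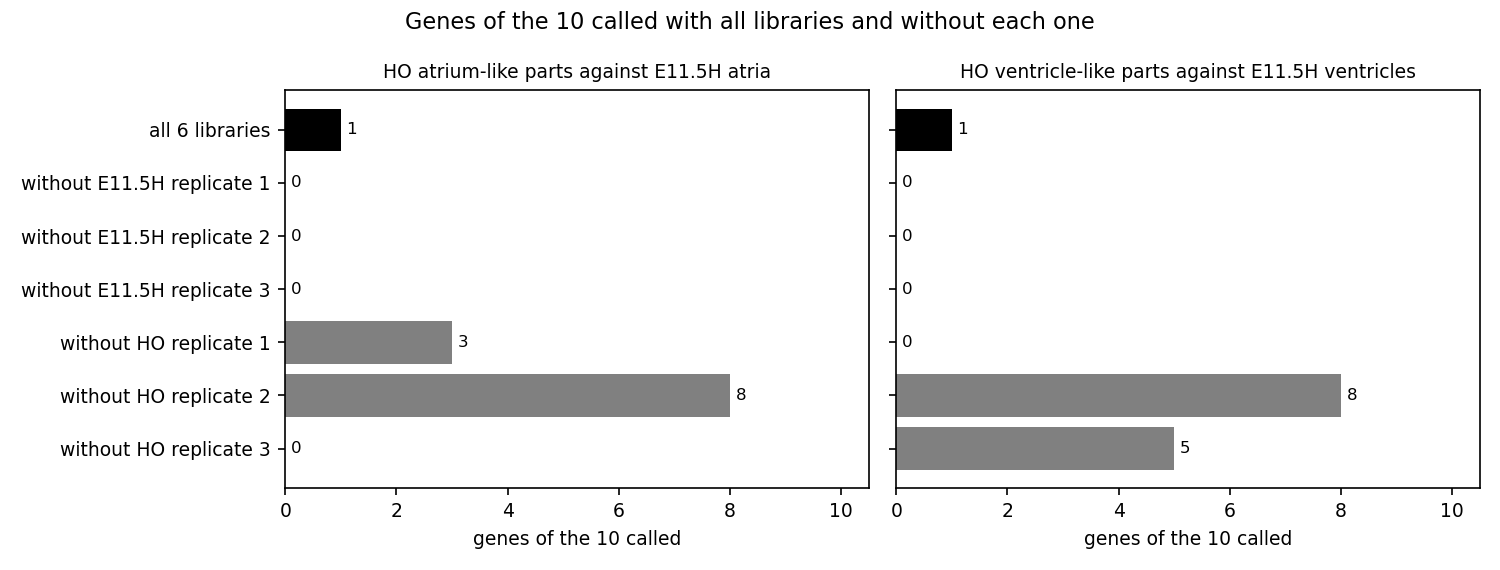
Number of the 10 genes called (adjusted p under 0.05 and absolute log2 fold change over 1) in each HO part against the matching embryonic chamber, with all 6 libraries (black) and without each library in turn (grey). The bars reach 8 genes without HO replicate 2 in both comparisons.

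Of the other pan-endothelial genes, 5 of 20 were called lower in atrium-like parts and 10 of 20 in ventricle-like parts, with median log2 fold changes of -2.74 and -2.79 and no gene called higher. Robo4, Sox18, Mmrn2 and Rasip1 were called lower in both parts, and Tal1 in atrium-like parts. Of 12 other endocardial genes, 4 and 6 were called lower. Npr3, the natriuretic peptide clearance receptor, Cytl1 and Hapln1, which encodes a matrix link protein, were called lower in both parts. Of the arterial list 1 of 13 was called higher and 4 lower in atrium-like parts, and 2 lower in ventricle-like parts. Of the venous list 4 of 8 were called lower in atrium-like parts, and 3 lower and 1 higher in ventricle-like parts. The genes named in this account were chosen after their values were seen, and their calls were not recomputed without single libraries. In the same comparisons 15 and 12 of 16 cardiomyocyte genes were called lower, and 12 of 12 and 5 of 8 tested genes of hepatocytes and visceral endoderm were called higher.

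The ligands of the receptors among the 10 genes did not all follow them. Vegfa, which encodes the ligand of Kdr and Flt1, had 4.43 to 6.67 FPKM in atria and 9.41 to 12.6 FPKM in ventricles of E11.5H, and 36.1, 59.0 and 68.4 FPKM in atrium-like and 74.4, 59.2 and 61.4 FPKM in ventricle-like parts. It was above the embryonic libraries in each HO library and rose on the log2 scale by 3.37 with a standard error of 0.28 (adjusted p = 0.00161 by edgeR) and by 2.43 with a standard error of 0.18 (adjusted p = 0.00136). Pgf, which encodes a ligand of Flt1, rose by 1.66 and 1.77, with 2.08 to 4.84 FPKM in E11.5H and 6.44 to 16.8 FPKM in HOs. Of the other VEGF ligands, Vegfb was called lower in both parts (-1.31 and -1.22), and in ventricle-like parts Vegfc was called lower (-1.79) and Vegfd higher (2.04). Of 8 genes on this list, 2 were called higher and 1 lower in atrium-like parts, and 3 higher and 3 lower in ventricle-like parts, the last of them Flt4 (-4.11), the receptor of VEGF-C.

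Of the ligands of Tek, Angpt1, its main agonist, had 16.4, 21.3 and 18.2 FPKM in atria, 12.6, 14.8 and 13.3 FPKM in ventricles, and in HOs 0.186, 1.82 and 0.242 FPKM in atrium-like and 2.46, 2.80 and 2.14 FPKM in ventricle-like parts. All HO libraries were below all embryonic libraries, and the log2 fold changes were -4.56 with a standard error of 0.87 (adjusted p = 0.0127 by edgeR) and -2.56 with a standard error of 0.16 (adjusted p = 0.00115). Angpt2, which can oppose Angpt1, was called higher by 2.18 and 2.24, with 0.447 to 1.88 FPKM in E11.5H and 1.41 to 7.36 FPKM in HOs. Of the angiopoietin list, 1 of 6 tested was called higher and 2 lower (Angpt1, and Svep1 at -2.30) in atrium-like parts, and 2 of 5 tested were called higher (Angpt2, and Angpt4 at 3.0) and 1 lower in ventricle-like parts.

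Some of these calls rest on single libraries. Vegfa, Vegfc, Flt4, Angpt1 and Svep1 remained called without any 1 library and under every other setting tried. Angpt2 lost its call in atrium-like parts without atrial replicate 1 or 3 or atrium-like replicate 3 (adjusted p = 0.0751 to 0.10 in edgeR's test), and in ventricle-like parts without any 1 of the 3 ventricles (adjusted p = 0.0681 to 0.0961). Angpt4 lost its call in ventricle-like parts without any 1 of the ventricles as well (adjusted p = 0.0597 to 0.0934 in edgeR's test). Pgf lost its call without any 1 of the 6 embryonic libraries (adjusted p = 0.0550 to 0.0885 in edgeR's test) or without ventricle-like replicate 1 (0.0501), Vegfb in atrium-like parts without atrial replicate 1 or 3 (0.0552 to 0.0572), and Vegfd without any 1 of the ventricles or ventricle-like replicate 1 (0.0535 to 0.113). With the replicate block, Pgf lost its call in atrium-like parts (adjusted p = 0.0548 by edgeR), and Angpt2 (0.0750), Angpt4 (0.0750) and Vegfd (0.0815) lost theirs in ventricle-like parts. With all 12 libraries in 1 fit, Vegfd (adjusted p = 0.0652 by edgeR) and Angpt4 (0.108) lost theirs, and by limma on log2(FPKM + 1) Angpt4, at 0.93, fell under the fold limit. Apart from Vegfa and Svep1, the ligands and receptors outside the 10 genes in this account were chosen after their values were seen.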

How the data were processed

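RNA of 12 dissected samples was sequenced, 3 for each of 4 groups, namely the atria and the ventricles of E11.5 embryonic hearts and both parts of day 13 HOs. According to the labels and the methods of the study, libraries were made with Illumina TruSeq reagents and reads were aligned to GRCm38 (mm10) with STAR. The counting program, its strand setting and the annotation release are not given in the sources used here. The authors deposited 1 table of 26190 genes with, for each library, estimated fragment counts (expected counts, of which 23.8% were not whole numbers) and FPKM, which the authors computed from those counts, transcript length and the library total. Totals were 23971258 to 30540993 fragments, and floors of 3 fragments cover counting error only. All 12 pairs of replicates differed by more than sampling noise.

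Expected counts were rounded and tested in edgeR 4.0.16 (R 4.3.3) with filterByExpr (minimum count 10), TMM factors and the quasi-likelihood test, fitting the pair of groups compared alone, or all 12 libraries for the interaction of chamber and tissue. P-values were adjusted by Benjamini-Hochberg over all genes tested, and calls needed an adjusted p under 0.05 together with a log2 fold change beyond 1 in either direction. The 95% intervals use the standard error and the normal distribution, so that they can exclude 0 where the test has a p above 0.05. For Flt1 in atrium-like parts against atria, the interval was 0.08 to 3.61 with an unadjusted p of 0.083 in edgeR's test. Log2 CPM used a prior count of 2. Alternatives were DESeq2 1.42.0, limma 3.58.1 on log2(FPKM + 1) and log2(FPKM + 0.1), other scalings and filters, a joint fit, a replicate block and leaving out each library. In simulated counts that held 200 genes with a log2 change of 2, edgeR recovered 81% of them for the embryonic chambers, 0% for the HO parts, 24.5% for atrium-like parts against atria, 48.5% for ventricle-like parts against ventricles and 28% for the interaction. The 200 genes were drawn from all genes tested, which in the median spread less over HOs than the 10 genes. Where HOs enter, these shares do not give the power for the 10 genes. Figures were drawn with matplotlib 3.10.9.

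The 10 genes and the gene lists were chosen with earlier results of these data known. Named genes are the 10 genes and, from the other lists, those called between embryonic chambers (all where a list had 5 or fewer). Genes of like pattern are the 5 with the highest Pearson correlation with the mean of the 10, among genes with a mean of at least 5 CPM. Genes outside this rule are marked in the text as chosen after their values were seen. Promoters came from RefSeq (GRCm38.p6) for 7 of the 10 genes.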

Additional observations from a re-analysis of the deposited data

Results flagged for a closer look

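Nr2f2, a transcription factor of veins and of atrial muscle and 1 of the 8 venous and lymphatic genes, stood out because its chamber difference was not the same in HOs as in E11.5H. It had 17.5, 16.6 and 16.7 FPKM in atria, 2.18, 2.13 and 2.57 FPKM in ventricles, 3.37, 6.72 and 3.84 FPKM in atrium-like parts and 6.65, 6.58 and 5.76 FPKM in ventricle-like parts. The interaction was -3.11 as a log2 value, with a standard error of 0.27 and an adjusted p of 0.00285 in edgeR's test. The embryonic chambers did not overlap, whereas the HO parts did, with log2 fold changes of 2.81 and -0.31. None of the 10 endothelial and endocardial genes was called in this test, and Kdr had a value of -2.81 with a 95% interval from -5.90 to 0.29. The groups hold 3 libraries each, too few for the check of single libraries that stand apart.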

How the results depend on the processing

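Between the embryonic chambers 0 of the 10 genes were called under the other settings, except that dropping the fold limit gave 2 (Emcn and Eng), and with all 12 libraries in 1 fit the values of Tie1 and Klf2 turned to -0.0122 and -0.00701. The counts for HO parts against the embryo follow, with the share of all genes called in brackets. For atrium-like parts against atria, 2 genes instead of 1 were called with DESeq2 size factors (24.9%) and 2 with no low-count filter (18.7%). DESeq2's test called 3 (31.1%), limma on log2(FPKM + 1) called 7 (22.4%) and limma on log2(FPKM + 0.1) called 7 (28.2%). All 12 libraries gave 2 (28%) and the replicate block gave 2 (18.2%). For ventricle-like parts against ventricles, 2 instead of 1 were called with DESeq2 size factors (19%) and 2 by DESeq2's test (24.8%). The 2 forms of limma called 6 (14.3%) and 7 (20.3%). All 12 libraries gave 2 (19.6%) and the replicate block gave 3 (13.3%). Leaving out 1 library gave 0 to 8 in both comparisons, with the shares of all genes stated above. The cause of these differences between tools was not tested. Between HO parts, Nfatc1 turned from -0.02 to 0.00563 with no low-count filter, 8.00e-04 with all 12 libraries and 0.00568 with the replicate block. Flt1 (-0.11) and Tek (-0.24) turned without replicate 2 of both parts, an alternative chosen after seeing the data. In the interaction by limma, Emcn was at 0.18 and Nfatc1 at -0.0241 on log2(FPKM + 1), and Nfatc1 at -0.0585 on log2(FPKM + 0.1). Leaving out 1 library turned the sign of uncalled values. Between embryonic chambers Klf2 ran from -0.0223 to 0.0689 and Tie1 from -0.0900 to 0.0956. Between HO parts Cdh5 ran from -0.0667 to 3.28, Emcn from -6.71 to 2.47, Eng from -2.27 to 3.20, Flt1 from -0.0968 to 1.27, Klf2 from -0.24 to 0.72, Nfatc1 from -0.82 to 0.58, Pecam1 from -1.52 to 3.51, Tek from -1.84 to 2.998 and Tie1 from -2.79 to 5.62. In the interaction Emcn ran from -6.04 to 3.12, Eng from -1.48 to 3.97, Klf2 from -0.24 to 0.71, Nfatc1 from -0.60 to 0.79, Pecam1 from -1.10 to 3.92, Tek from -2.04 to 2.85 and Tie1 from -2.85 to 5.63. The lowest values of Emcn, -6.71 and -6.04, came from fits without atrium-like replicate 2. Atrium-like replicates 1 and 3 then held 0 and 1 fragments of Emcn, so these 2 values are not usable as fold sizes. The highest values of Emcn and Tie1 came from fits without ventricle-like replicate 2. Ventricle-like replicates 1 and 3 then held 3 and 12 fragments of Emcn and 5 and 8 of Tie1, which is near the floor. The median spread over HO libraries was 1.21 on log2(FPKM + 1) and 1.93 to 2.42 without 1 library. The labels do not say whether a replicate number marks a shared heart or organoid. Deviations of samples with the same number correlated at 0.00710 to 0.0431 between embryonic chambers. Between HO parts they correlated at 0.0174, 0.589 and 0.360 for replicates 1, 2 and 3. HO samples with different numbers correlated at -0.671 to 0.436, the highest being atrium-like replicate 1 with ventricle-like replicate 3. The numbers were therefore not used as pairs, and whether replicates 2 or 3 of the HO parts are pairs cannot be told from these values. With the replicate block 0 of the 10 genes were called between HO parts, where Pecam1 was at 1.0 (unadjusted p = 0.0282, adjusted p = 0.541 by edgeR). Over all genes, the joint fit called 55 instead of 712 between embryonic chambers, and leaving out 1 embryonic library called 1662 to 1726 instead of 3821 and 1116 to 1212 instead of 2859. Scaling by totals alone moved the median of all genes by -0.15 between HO parts, by -0.13 for atrium-like parts against atria and by 0.14 for ventricle-like parts against ventricles, and no direction of the 10 genes turned under it.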

Other observations

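Other genes of the pathways of Eng, Nfatc1 and Klf2 were also measured against the embryonic chambers, and those named here apart from Bmp10 and Thbd were chosen after their values were seen. Of 16 genes of the endoglin pathway, Tgfbr2, the type 2 receptor of TGF-β, was called higher in atrium-like parts (log2 fold change 2.42) and in ventricle-like parts (1.60), Tgfb1 was called higher in ventricle-like parts (1.18), and Id2 was called lower in atrium-like parts (-1.14). Bmp10 had 4.88 to 5.46 FPKM in atria and 13.3 to 15.1 FPKM in ventricles and at most 1 fragment in each HO library, so that no fold is given. Of 8 genes of calcineurin and NFAT, 0 were called in either comparison by edgeR, with 0 and 3 at an unadjusted p under 0.05.

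Of 15 genes of the flow response, Klf4, which encodes a relative of Klf2, was called higher by 3.91 in atrium-like and by 1.62 in ventricle-like parts. Nos3, the nitric oxide synthase of endothelium, was called lower in both (-3.55 and -3.96), as was Mef2c (-1.96 and -1.43), and Thbd was called lower in atrium-like parts (-2.15). Of 9 partners of VE-cadherin, F11r was called higher in atrium-like parts (1.80) and Esam lower in ventricle-like parts (-1.66). Wnt9b was called lower in both but had at most 3 fragments in each HO library, and no fold is given. In all, 1 of the 15 was called higher and 4 lower in atrium-like parts, and 1 higher and 3 lower in ventricle-like parts. These calls were not recomputed without single libraries.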
